A study of Homo sapiens with 6 samples.

Results

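The insulin-like growth factor (IGF) binding proteins and receptors were described as 10 genes, IGFBP1 to IGFBP7, IGF1R, IGF2R and IGF2, which were taken by symbol from the 23346 genes of the count table, and all 10 were present in it. The table holds 6 RNA-seq libraries of BT549 cells, a mesenchymal-like human breast cancer line with a genotype labelled WT. Control cells (3 libraries) received a negative control (NC) siRNA and knockdown cells (3 libraries) received an equal mix of 3 GenePharma siRNAs against BNC2, both at a final 20 nM, in RPMI medium with serum, and poly(A) RNA was taken after 6 d. The methods call the 3 replicates biological. These are cultures of 1 cell line, so neither the receptor levels nor the response to the BNC2 siRNA mix can be carried over to tissue. A change in RNA per cell cannot be told apart from a change in the share of cells that express a gene. Since a single siRNA mix was sequenced, effects of BNC2 loss cannot be told apart from other effects of the mix.

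IGF1 and IGF2 are secreted ligands that signal mainly through the tyrosine kinase IGF1R. IGF2R has no kinase domain, and it removes IGF2 from the cell surface and carries lysosomal enzymes. The IGFBPs are secreted carriers which hold the ligands away from the receptor or release them after proteolysis, and several of them also bind the extracellular matrix, the compartment this study of BNC2 is about.

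The libraries held 16093978 to 18246254 reads on genes. BNC2 itself was reduced only in part: it had 65.6, 51.5 and 58.6 CPM (counts scaled to library size, here by edgeR's TMM method) with NC siRNA and 35.5, 36.6 and 41.6 CPM with BNC2 siRNA, which is 64.6% of the control level in the fit (log2 fold change -0.63, standard error 0.09, edgeR quasi-likelihood test, adjusted p = 8.2e-06). The cells fitted their label, with VIM between 2982 and 3513 CPM in every library, CDH1 at no more than 1 count, and EPCAM and ESRP1 at 0 counts. Much of the transcriptome differed between the groups. Calls rest on adjusted p-values (Benjamini-Hochberg, 0.05 or less) over the 12186 genes that exceeded 1 CPM in 3 or more libraries, and 72.9% of these genes were called.

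Of the 10 genes, 7 passed the filter on low counts, and 5 of these (IGFBP5, IGFBP4, IGF1R, IGF2R and IGFBP3) rose, 1 (IGFBP7) fell and 1 (IGFBP6) was not called. Over all genes tested 36.6% were called as higher and 36.2% as lower. The libraries of the groups did not overlap in 6 of the 7 genes, against 74.9% of all genes tested. IGFBP1, IGFBP2 and IGF2 had too few reads to be tested. The median log2 fold change of the 7 genes was 0.85, against 0.00 for all genes tested, and the median of their absolute log2 fold changes was 0.85, against 0.44. With so many genes called in this comparison, the number of calls says little about the family, and the sizes of the single changes are given below.

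**Figure D1:**
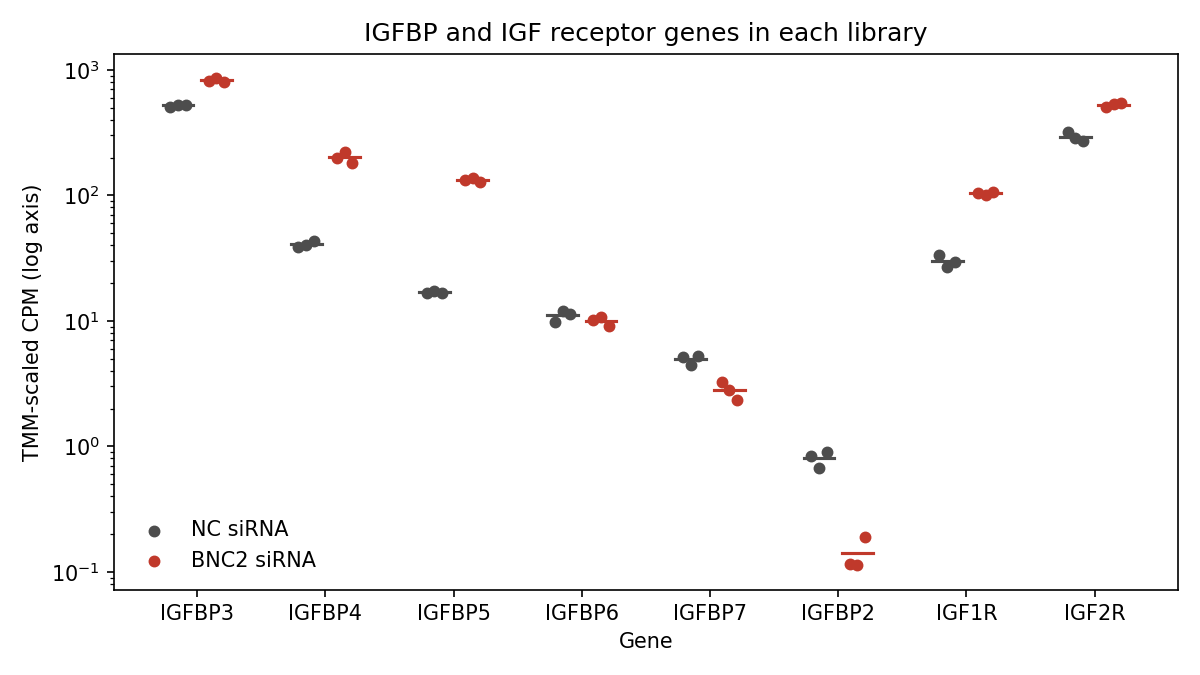
TMM-scaled CPM (log axis) of 8 of the genes in each library, with NC siRNA in grey and BNC2 siRNA in red; points are libraries and lines are group means (IGFBP1, at 4 counts or fewer, and IGF2, at 0 counts, are not drawn). IGFBP4, IGFBP5 and IGF1R stand well apart between the groups, IGFBP6 overlaps, and IGFBP2 lies below 1 CPM throughout.

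The largest change was that of IGFBP5, a binding protein with high affinity for both ligands that is retained in the matrix. The gene lies at chr2:217536828-217560272 of GRCh37, on the minus strand. Its control libraries held 16.6, 17.3 and 16.6 CPM, and its knockdown libraries 133.4, 138.6 and 128.8 CPM. Every knockdown library was thus far above every control, and the replicates of a group were close to each other. The rise was 7.94-fold (log2 fold change 2.99, standard error 0.07, edgeR quasi-likelihood test, adjusted p = 2.6e-15), the 34th largest rise among the 12186 genes.

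IGFBP4, a soluble binding protein that mostly restrains IGF signaling until it is cleaved by the protease PAPPA, followed the same direction. It lies at chr17:38599702-38613977 (GRCh37, plus strand). Its levels were 38.7, 40.3 and 43.1 CPM with NC siRNA, and 199.0, 220.1 and 182.2 CPM with BNC2 siRNA. The groups were again far apart, with a wider spread among the knockdown libraries (SD 19 CPM) than among the controls (SD 2.23 CPM). The rise was 4.93-fold (log2 fold change 2.30, standard error 0.08, edgeR adjusted p = 1.7e-13), the 80th in rank.

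IGFBP3, the main carrier of IGFs in serum, was the most abundant of the binding proteins in these cells under both conditions. It had 506, 525 and 529 CPM with NC siRNA and 816, 855 and 800 CPM with BNC2 siRNA, without overlap. The 1.58-fold rise (log2 fold change 0.66, standard error 0.05, edgeR adjusted p = 9.7e-09) was much smaller than those of IGFBP4 and IGFBP5, and 16.2% of all genes tested rose more. IGFBP3 lies at chr7:45951844-45961473 (GRCh37, minus strand).

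IGFBP6, which prefers IGF2 over IGF1, is the tested family member without a call. It had 9.80, 11.99 and 11.3 CPM with NC siRNA and 10.2, 10.8 and 9.04 CPM with BNC2 siRNA, so that the groups overlapped. Its log2 fold change was -0.14, with an approximate 95% interval of -0.38 to 0.10 (edgeR adjusted p = 0.306). A rise of the size seen for IGFBP3 lies outside this interval.

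IGFBP7, a matrix-bound relative with low affinity for IGFs, was the member that fell. It was weakly expressed, at 5.13, 4.42 and 5.24 CPM after NC siRNA and at 3.26, 2.82 and 2.36 CPM after BNC2 siRNA. The groups did not overlap, and the level was 1.74-fold lower (log2 fold change -0.80, standard error 0.18, edgeR adjusted p = 0.00066). The 3′ part of IGFBP7 (chr4:57896939-57976551, GRCh37, minus strand) meets POLR2B on the opposite strand, where 260 of its 1930 exon bases are shared. Reads of the counted strand only were used, and the opposite strand held 64 reads on IGFBP7 against 400 in sense over the 6 libraries.

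The other two binding protein genes were close to the limit of detection. IGFBP2, at chr2:217497551-217529159 (GRCh37, plus strand), had 15, 12 and 15 counts with NC siRNA and 2, 2 and 3 counts with BNC2 siRNA. Each knockdown library was below each control, and the summed level was 5.82-fold lower (exact 95% interval 2.59 to 15.3, counting error only). IGFBP2 was left out of the test by the filter. In the edgeR fit without any filter on low counts it was called as lower (log2 fold change -2.45, standard error 0.63, adjusted p = 0.00027). IGFBP1, which in the body is made mostly by the liver under the control of insulin, had 0, 3 and 4 counts with NC siRNA and 0, 0 and 1 with BNC2 siRNA, a ratio of 6.79 with an exact 95% interval of 0.872 to 306, so that a difference was not detectable at this depth.

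The IGFBP genes lie partly in neighbouring pairs. IGFBP2 and IGFBP5 are 7668 bases apart on chromosome 2, and IGFBP1 and IGFBP3 are 18584 bases apart on chromosome 7. In the first pair IGFBP5 rose while IGFBP2 had fewer counts with BNC2 siRNA, and in the second IGFBP3 rose while IGFBP1 stayed at 4 counts or fewer in every library.

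Of the receptors, IGF1R changed most. It lies at chr15:99191768-99507759 (GRCh37, plus strand). Control cells had 33.4, 26.8 and 29.4 CPM and knockdown cells 104.1, 99.9 and 106.5 CPM, with a wide gap between the groups. The rise was 3.47-fold (log2 fold change 1.79, standard error 0.08, edgeR adjusted p = 4.7e-12), and 1.54% of the genes tested rose more.

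IGF2R (chr6:160390114-160534539, GRCh37, plus strand) rose from 320.3, 284.0 and 273.2 CPM with NC siRNA to 503.5, 532.7 and 544.6 CPM with BNC2 siRNA. The groups did not overlap. The rise of 1.80-fold (log2 fold change 0.85, standard error 0.06, edgeR adjusted p = 4.1e-09) was smaller than that of IGF1R. The ratio of IGF2R to IGF1R, each as CPM per kilobase of exon (RPKM), was accordingly 5.91, 6.54 and 5.73 in the control libraries and 2.98, 3.29 and 3.15 in the knockdown libraries. The ratio restates the changes of both genes and was not counted as a further test, since an exact permutation test of 3 libraries against 3 cannot go below 0.1.

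**Figure D2:**
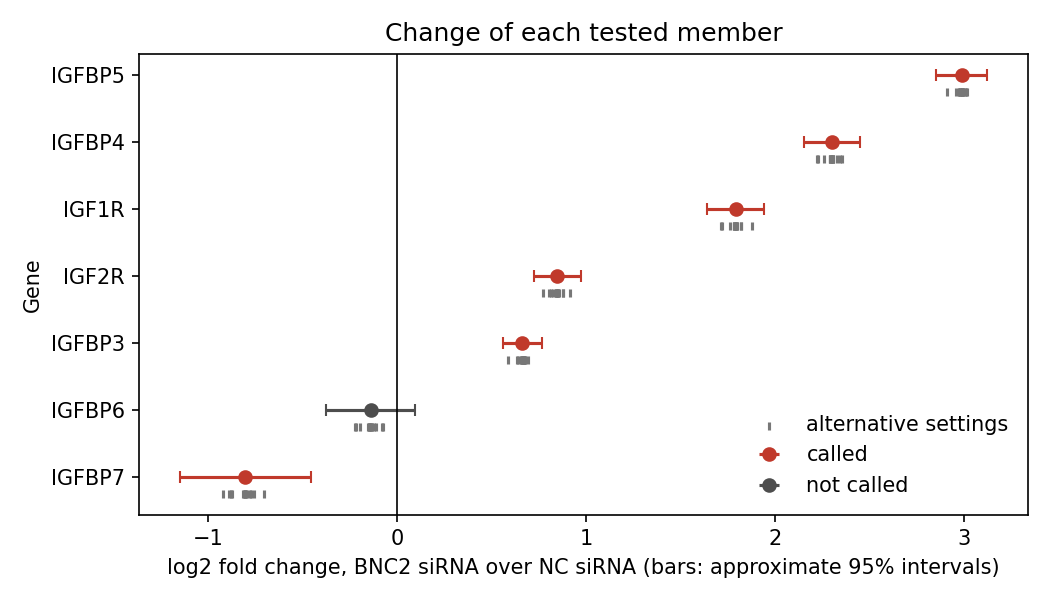
log2 fold change (BNC2 siRNA over NC siRNA) of the 7 tested genes, with bars of approximate 95% intervals, red where called and grey where not; small grey ticks below each point show the 14 alternative settings. IGFBP5, IGFBP4 and IGF1R lie above 1.6 in every setting, and the interval of IGFBP6 includes 0.

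No reads were assigned to IGF2 in any library, and 0 counts allow at most 0.168 to 0.191 CPM per library. This does not exclude IGF2 transcripts, since a read that overlaps exons of more than 1 gene is not counted, and in the GENCODE annotation 1460 of the 7146 exon bases of IGF2 (chr11:2150342-2179621, GRCh37, minus strand) also belong to the readthrough gene INS-IGF2. How far these genes overlap in the UCSC annotation that the authors used was not tested. INS-IGF2 and INS were also at 0 counts in every library. IGF1, the other ligand, had 2, 3 and 0 counts with NC siRNA and 0 counts in each BNC2 siRNA library. Receptors and carriers were hence counted in these cells with next to no reads on the ligand genes.

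Levels of different genes were compared per length. With NC siRNA the order in RPKM was IGFBP3 (113.8 ± 2.6, SD, n = 3), IGFBP4 (18.5 ± 1.01), IGF2R (12.9 ± 1.09), IGFBP6 (8.20 ± 0.83), IGFBP5 (2.6 ± 0.06), IGFBP7 (2.55 ± 0.23), IGF1R (2.14 ± 0.24) and IGFBP2 (0.17 ± 0.03). The ranges of IGFBP7 over the libraries overlapped those of IGFBP5 above it and IGF1R below it. Within each control library IGFBP7 was above IGF1R (2.66, 2.29 and 2.71 against 2.40, 1.92 and 2.11 RPKM). Its order against IGFBP5 (2.57, 2.68 and 2.56 RPKM) changed between libraries. With BNC2 siRNA, IGFBP3 (180.2 ± 6.22 RPKM) and IGFBP4 (90.9 ± 8.63 RPKM) were still the highest, IGFBP5 (20.7 ± 0.76 RPKM) followed IGF2R (23.3 ± 0.93 RPKM), and IGF1R (7.42 ± 0.24 RPKM) was level with IGFBP6 (7.43 ± 0.65 RPKM). Distances and the order of close neighbours depend on the gene length used. Per length of the longest transcript, the knockdown level of IGF2R was 37.0 ± 1.48 RPKM against 21.4 ± 0.79 RPKM for IGFBP5. By the same length, the mean control level of IGF2R (20.6 ± 1.74 RPKM) was above that of IGFBP4 (18.5 ± 1.01 RPKM). The libraries of these genes overlapped, and in NC siRNA replicate 3 the order was reversed (19.2 RPKM for IGF2R against 19.5 RPKM for IGFBP4). The control level of IGFBP7 (3.45 ± 0.31 RPKM) was above those of IGFBP5 (2.70 ± 0.07 RPKM) and IGF1R (2.44 ± 0.27 RPKM), without overlap.

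The summed level of the 7 IGFBP genes was 141.1, 147.3 and 149.3 RPKM in the control libraries and 298.7, 317.9 and 285.6 RPKM in the knockdown libraries, a ratio of 2.06 between the group means. The make-up of this sum also differed between the groups, which was not tested. IGFBP3 gave 78.0 ± 0.53% (SD, n = 3) of it with NC siRNA and 60.0 ± 1.22% with BNC2 siRNA, although IGFBP3 itself rose. The share of IGFBP4 went from 12.7 ± 0.39% to 30.2 ± 1.24%, and that of IGFBP5 from 1.78 ± 0.06% to 6.88 ± 0.12%. IGFBP6 went from 5.61 ± 0.44% to 2.47 ± 0.10% and IGFBP7 from 1.75 ± 0.17% to 0.48 ± 0.07%. The sum and the shares depend on the gene length used. Per length of the longest transcript, the share of IGFBP4 went from 7.96% to 20.8% and that of IGFBP5 from 1.16% to 4.92%. The summed level was then 231.9 RPKM with NC siRNA and 435.8 RPKM with BNC2 siRNA.

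**Figure D3:**
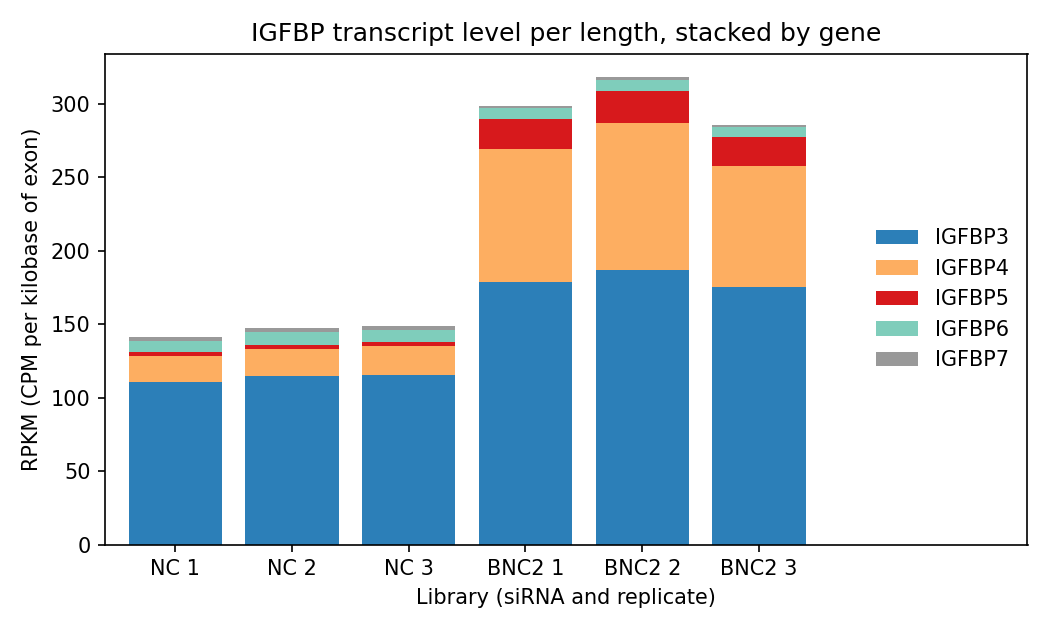
Stacked bars of the level per length (RPKM, linear axis from 0) of IGFBP3 to IGFBP7 in each of the 6 libraries; IGFBP1 and IGFBP2 are too low to be seen. The total lies between 141.1 and 149.3 in the NC siRNA libraries and between 285.6 and 317.9 in the BNC2 siRNA libraries, with most of the added height in IGFBP3 and IGFBP4.

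Since IGFBP4, IGFBP5 and IGF1R rose together, the 250 bases before their RefSeq transcription start are shown, 5′ to 3′ on the strand of the gene (RefSeq, GRCh38.p14; these positions are of another build than the gene positions above). They are IGFBP4 at chr17:40443200-40443449 (plus strand), IGFBP5 at chr2:216695550-216695799 (minus strand) and IGF1R at chr15:98648289-98648538 (plus strand). Capitals mark the TATA motif (TATAAA), the GC box (GGGCGG) and the CCAAT box, searched on either strand.
IGFBP4: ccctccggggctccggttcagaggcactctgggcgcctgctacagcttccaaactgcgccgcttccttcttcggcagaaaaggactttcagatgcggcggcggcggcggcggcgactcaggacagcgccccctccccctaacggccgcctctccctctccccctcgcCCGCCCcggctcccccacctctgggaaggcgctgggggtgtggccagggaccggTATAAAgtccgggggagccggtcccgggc
IGFBP5: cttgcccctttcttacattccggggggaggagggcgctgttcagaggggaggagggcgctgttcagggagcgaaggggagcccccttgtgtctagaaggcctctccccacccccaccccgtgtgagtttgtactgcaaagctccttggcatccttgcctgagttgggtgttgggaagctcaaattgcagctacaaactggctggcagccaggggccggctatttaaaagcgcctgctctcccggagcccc
IGF1R: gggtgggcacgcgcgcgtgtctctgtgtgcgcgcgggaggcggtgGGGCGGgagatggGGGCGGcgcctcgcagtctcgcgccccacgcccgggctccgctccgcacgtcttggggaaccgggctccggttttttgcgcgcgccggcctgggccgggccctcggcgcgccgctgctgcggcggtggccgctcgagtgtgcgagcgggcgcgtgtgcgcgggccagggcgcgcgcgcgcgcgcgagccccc

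The IGFBP4 sequence holds 1 TATAAA, which begins 29 bases before the start, and 1 GC box. IGF1R has 2 GC boxes and is the richest in G and C (81.2%, against 71.6% for IGFBP4 and 61.2% for IGFBP5). None of the 3 motifs is in the IGFBP5 window in these exact letters, and near matches were not searched for. Of the other genes that rose, IGFBP3 has 2 GC boxes and IGF2R has 6, and IGFBP6, which was not called, has 1. Among all 35116 RefSeq promoter windows of this length, TATAAA was found in 10.7%, the GC box in 42.6% and CCAAT in 32.0%. These matches describe the sequence and are not evidence of binding.

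By their pattern over the 6 libraries (log2 of CPM + 0.5, centred on each gene's mean, Euclidean distance), the genes nearest to IGFBP5 were ID4 (distance 0.25), RASSF5 (0.27) and PRKAA2 (0.32). ID4 rose from 1.63 ± 0.19 to 16.5 ± 1.52 CPM (SD, n = 3), RASSF5 from 2.08 ± 0.25 to 17.7 ± 1.79 CPM and PRKAA2 from 1.40 ± 0.09 to 13.7 ± 1.81 CPM. With only 2 conditions, likeness here reflects mainly a similar size of change.

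The wider IGF axis was taken as a list of 58 further genes: ligands, receptors, proteases and regulators of IGFBPs, other proteins with an IGFBP domain, adaptors, the PI3K, AKT and FOXO branch, RNA-binding proteins of IGF2 mRNA, IGFALS (a subunit of the circulating IGF complex) and the non-coding H19 and IGF2-AS. All 58 were in the table and 38 passed the filter. Of the 38, 16 rose, 11 fell and 11 were not called, a share called of 71.1%, close to that of all genes. With scaling by total counts only, 14 were called as higher and 16 as lower. That scaling moves all genes alike. The median log2 fold change of all genes was then -0.07, and 44.5% of all called genes were higher, against 50.3% with TMM scaling. Which direction held more calls in the list is therefore not read as a result. The median of their log2 fold changes was 0.03, with a median absolute value of 0.47. Genes of the axis were thus called in both directions.

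Among the other receptors, INSR, the insulin receptor, which can pair with IGF1R, rose 1.64-fold. It had 30.2, 24.6 and 29.1 CPM with NC siRNA and 43.1, 46.8 and 47.7 CPM with BNC2 siRNA, without overlap (log2 fold change 0.71, standard error 0.09, edgeR adjusted p = 1.2e-06). M6PR, the smaller mannose 6-phosphate receptor, which sorts lysosomal enzymes as IGF2R does, had a log2 fold change of -0.10 (standard error 0.05, edgeR adjusted p = 0.098), and TMEM219, a receptor for IGFBP3, one of 0.18 (standard error 0.10, edgeR adjusted p = 0.118). INSRR, the insulin receptor-related receptor, had 3, 1 and 4 counts with NC siRNA and 0 counts with BNC2 siRNA.

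All 6 tested proteases and regulators of IGFBPs were called, 2 as higher and 4 as lower, where 72.9% of all genes tested were called. STC2, stanniocalcin-2, an inhibitor of PAPPA, fell from 764.7, 723.2 and 730.5 CPM to 240.5, 260.3 and 257.8 CPM, which is 2.92-fold lower (log2 fold change -1.55, standard error 0.06, edgeR adjusted p = 6.3e-13). PAPPA, the protease that cleaves IGFBP4, rose by 0.47 on the log2 scale (standard error 0.07), and ADAM12, which cleaves IGFBP3 and IGFBP5, by 0.59 (standard error 0.06). CTSD, a lysosomal protease, fell by 0.58 on the log2 scale (edgeR adjusted p = 3.9e-07). The falls of STC1 and HTRA1 were small (log2 fold changes -0.15 and -0.17), and they were not called in 5 and 7 of the 14 alternative settings.

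Proteins that carry an IGFBP domain without being classical carriers include the matrix proteins CYR61 and CTGF. Of the 4 tested, 2 rose and 2 (KAZALD1 and CRIM1) were not called, where 36.6% of all genes tested were called as higher. CYR61 rose 2.56-fold, from 322.1, 306.3 and 302.2 CPM to 794.4, 771.5 and 818.1 CPM (log2 fold change 1.36, standard error 0.05, edgeR adjusted p = 2.1e-12). CTGF rose 1.38-fold (edgeR adjusted p = 3.9e-06).

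Of the 10 adaptors and negative regulators tested, 4 rose and 3 fell, so that 70% were called, near the 72.9% of all genes. SOCS1, an inhibitor of cytokine and insulin signaling, fell most, from 5.07, 6.27 and 6.32 CPM to 1.22, 0.96 and 0.70 CPM (log2 fold change -2.6, standard error 0.22, edgeR adjusted p = 1.9e-08). SOCS1 passed the filter on low counts only through the NC siRNA libraries, where it is higher. Its call is therefore no support for a fall. SOCS3, an inhibitor of the same family, went the other way and rose 2.01-fold, from 18.4, 23.8 and 18.6 CPM to 43.2, 40.2 and 38.8 CPM (edgeR adjusted p = 9.5e-08), and SOCS2 was not called (log2 fold change -0.37, edgeR adjusted p = 0.064). The docking proteins through which IGF1R and INSR signal went opposite ways (this pair was singled out after the values had been seen). IRS1 had 14.1, 10.3 and 9.21 CPM with NC siRNA and 41.2, 40.4 and 40.6 CPM with BNC2 siRNA, a 3.63-fold rise (edgeR adjusted p = 4.1e-10). IRS2 had 18.1, 19.04 and 16.1 CPM with NC siRNA and 4.42, 4.17 and 3.95 CPM with BNC2 siRNA, so that it was 4.24-fold lower (edgeR adjusted p = 2.1e-10). Neither gene overlapped between the groups, and the higher of the pair was IRS2 in each control library and IRS1 in each knockdown library by CPM, which is not a comparison per length.

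In the PI3K, AKT and FOXO branch all 13 genes were tested, of which 6 rose and 3 fell (69.2% called, against 72.9% of all genes). AKT1 rose 2.54-fold, from 98.5, 106.7 and 101.6 CPM to 260.6, 252.9 and 265.8 CPM (log2 fold change 1.34, standard error 0.06, edgeR adjusted p = 3.7e-12). AKT2 rose 1.15-fold. PIK3R3 and PIK3R1, regulatory subunits of PI3K, fell by 1.33 and 0.98 on the log2 scale (edgeR adjusted p = 9.8e-12 and 1.5e-08), whereas the regulatory subunit gene PIK3R2 was called as higher by 0.16 (edgeR adjusted p = 0.030), a call that was lost in 6 of the 14 alternatives. The catalytic subunit gene PIK3CB rose by 0.88 (edgeR adjusted p = 2.6e-08), and PIK3CA, another catalytic subunit gene, was not called (log2 fold change -0.20, edgeR adjusted p = 0.056), although it was called as lower in 4 of the 14 alternatives. Of the proteins that bind IGF2 mRNA, IGF2BP2 rose by 0.34 (edgeR adjusted p = 2.1e-05), and IGF2BP3 fell from 6.65 ± 0.92 to 4.81 ± 0.80 CPM (SD, n = 3; log2 fold change -0.47, edgeR adjusted p = 0.015), a call that was lost in 3 of the 14 alternatives.

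**Figure D4:**
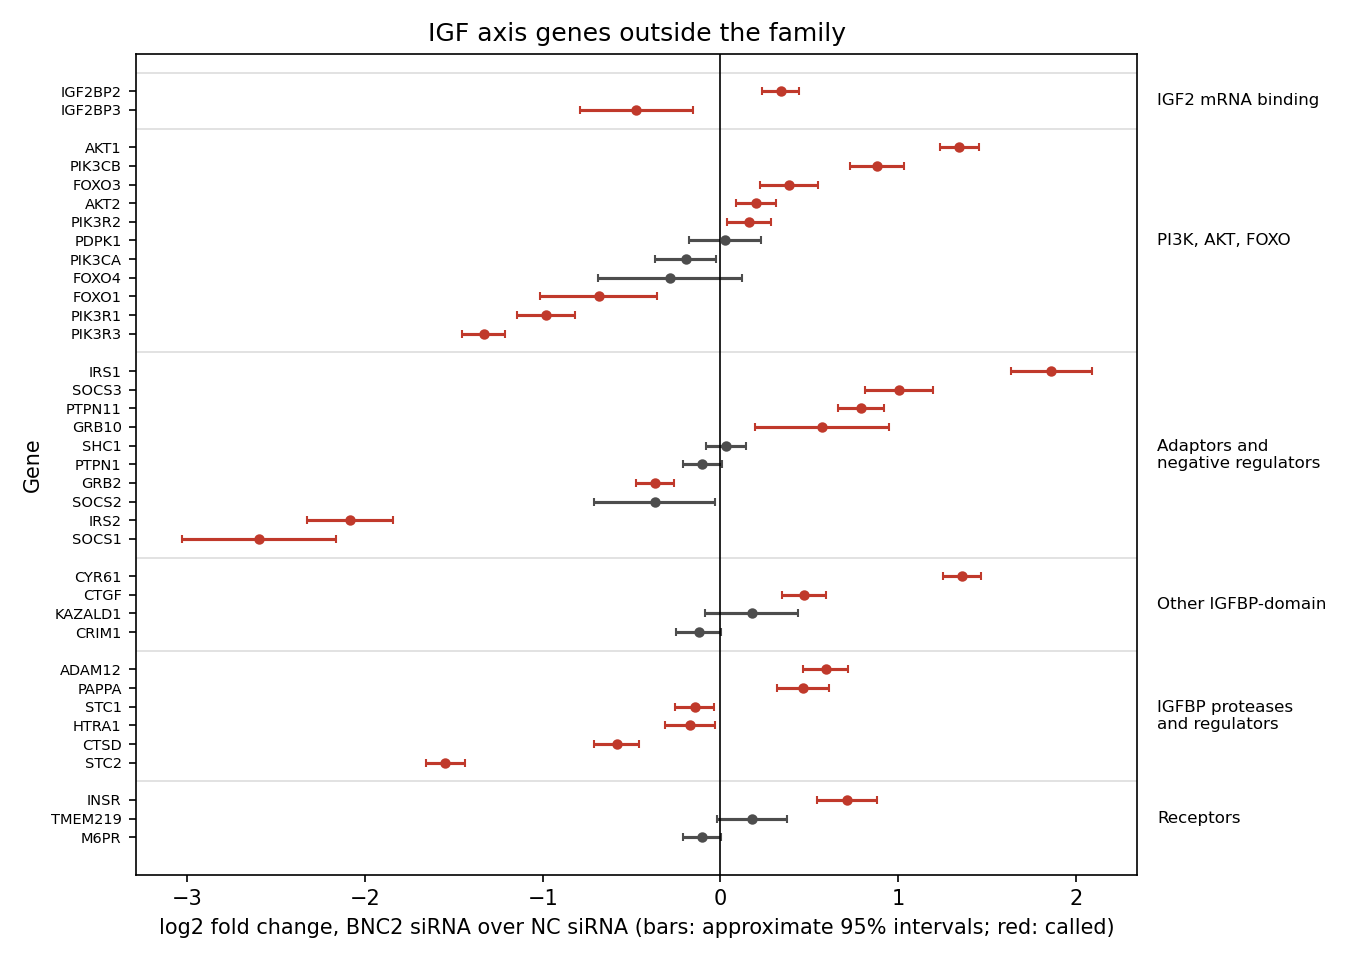
log2 fold change (BNC2 siRNA over NC siRNA) of 36 of the 38 tested genes of the wider IGF axis, grouped by role, with bars of approximate 95% intervals, red where called and grey where not. Most roles hold genes on both sides of 0, from SOCS1 at -2.6 to IRS1 at 1.86.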

How the data were processed

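Poly(A) RNA of BT549 cells was sequenced as single-end reads, which the authors aligned to hg19 with STAR 2.6.1d (submitters' processing notes) and the iGenomes UCSC annotation. The deposited values are read counts per gene, without normalisation: uniquely mapped reads of the reverse strand that overlap 1 gene. Reads that were unmapped, not uniquely placed or on no single gene made up 37.7% to 41.1% per library and were left out. The 12186 genes that exceeded 1 CPM in 3 or more libraries were compared with edgeR 4.0.16 (R 4.3.3, TMM, quasi-likelihood test without a block, Benjamini-Hochberg adjustment over all genes tested). The study used edgeR's likelihood ratio test, which was kept as an alternative together with DESeq2 1.42.0. CPM values are TMM-scaled, and RPKM divides them by the exon length in GENCODE release 44 (GRCh37, the assembly of hg19). The scripts were tested on simulated data. Depth limits rare genes, for which 3 counts equal 0.168 to 0.191 CPM, and intervals and limits from counts cover counting error only.

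The 10 genes and the lists were chosen with earlier results of these data known. Named genes were the 10, BNC2, in each role of the wider list the called gene with the largest change and at least 5 CPM in the higher group, each ligand and receptor, and the 3 genes nearest to the member with the largest rise. The member that fell, IGFBP7, had a higher group mean of 4.93 CPM and so fell short of that level. Other genes of the list were named after their values had been seen. The alternatives were other scalings, filters and tests, leaving out each library, a replicate block, both strands counted together, and the length of the longest transcript. Of the wider list, 2 tested genes are in its counts and are not reported here by name.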

Additional observations from a re-analysis of the deposited data

How the results depend on the processing

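The 6 called genes of the family kept their direction and their call in each of the 14 alternative fits run on them, and IGFBP6 was not called in any. Leaving out 1 library at a time gave log2 fold changes of 2.96 to 3.01 for IGFBP5, 2.23 to 2.36 for IGFBP4, 1.72 to 1.88 for IGF1R and -0.92 to -0.70 for IGFBP7. The number of family genes called as lower was 2 without a filter on low counts and with filterByExpr, since IGFBP2 was then tested. IGFBP2 passes filterByExpr only through the NC siRNA libraries, where it is higher, so that call is no support for a fall. The family's median log2 fold change was 0.77 with scaling by total counts only, 0.69 without the filter and 0.77 with filterByExpr. The replicate numbers of the labels did not pair the libraries (correlations of -0.21, -0.08 and -0.13 between libraries of the same number), and the fit with a replicate block called 8400 genes in place of 8879. The calls of STC1, HTRA1 and PIK3R2 were lost with the block, and ID4, RASSF5, PRKAA2, SOCS2, KAZALD1 and CRIM1 were not followed one by one through the alternatives.

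With the length of the longest transcript, the summed IGFBP level was 231.9 RPKM with NC siRNA and 435.8 with BNC2 siRNA. The shares were then 85.2% and 71.9% for IGFBP3, 7.96% and 20.8% for IGFBP4, and 1.16% and 4.92% for IGFBP5, so the direction of each shift was the same. Among the weaker results, M6PR was called as lower with total counts only (log2 fold change -0.18), TMEM219 as higher without NC siRNA replicate 2 (0.26), and AKT2 was not called with total counts only (0.12). Depth limits IGFBP1, IGFBP2 and IGF1, and for IGF2 the part of depth and of uncounted shared reads was not tested.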

Other observations

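Few reads fell on the non-coding genes at the IGF2 locus on chromosome 11. H19, an imprinted RNA gene next to IGF2, had 3, 3 and 9 counts with NC siRNA and 1, 0 and 0 with BNC2 siRNA. IGF2-AS, the antisense RNA, had 1 count in 1 control library and none elsewhere.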
